A study of Mus musculus with 16 samples.

Results

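The named small nuclear and nucleolar RNA genes are the 36 rows, of 5921 in the table of expression values used here, whose symbol begins with Snord, Snora, Scarna or Rnu. They comprised 21 C/D box small nucleolar RNAs (snoRNAs, symbols in Snord), 6 H/ACA box snoRNAs (Snora), 2 small Cajal body RNAs (scaRNAs: Scarna3a and Scarna6), 5 copies of the U3 RNA (Rnu3a and Rnu3b1 to Rnu3b4), 1 copy of the U1 spliceosomal RNA (Rnu1a1) and 1 of the U2 spliceosomal RNA (Rnu2-10). The values came from ventricles dissected from mouse embryos at E11.5, with 16 RNA-seq libraries in 4 groups of 4 biological replicates. Each value is the authors' TPM, a measure of relative abundance that divides by row length and scales each library to a fixed total. The rows held covered chromosomes 1 and 10 and chromosome 11 up to position 106501211, and the many small RNA genes elsewhere were not analysed here.

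The 4 groups were the control and the conditional knockout (cKO) of 2 mouse lines. One line has exons 2 to 3 of Atf4 flanked by loxP sites, Atf4 fl(e2/3), and the other has exon 2 alone flanked, Atf4 fl(e2). Atf4 encodes a transcription factor that cells use under stress, as when amino acids run short. In both cKO groups the Xmlc2-Cre transgene deleted the allele in cardiomyocytes, so other cells of the ventricle would keep it. The labels do not say if control embryos had a floxed allele or the Cre transgene, and the genotype label reads C57BL/6 WT on all 16 samples. No treatment was given. Batch 1 of the labels holds the exon 2-3 line and batch 2 the exon 2 line. A difference between the control groups is therefore one of line and batch together, which cannot be told apart.

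Box C/D snoRNAs guide the methylation of ribose on ribosomal RNA, and H/ACA snoRNAs guide the change of uridine to pseudouridine. ScaRNAs do the same on the RNAs of the spliceosome. U3 is a C/D snoRNA that guides no methylation and is needed to process the precursor of the small ribosomal subunit's RNA, while U1 and U2 recognise the 5′ splice site and the branch point of introns. In mammals most snoRNAs have no promoter of their own: they are cut from introns of host genes after splicing, and many hosts encode ribosomal proteins or translation factors, or are noncoding RNAs. Mature snoRNAs and spliceosomal RNAs carry no poly(A) tail. The labels differ on how the libraries were made, one text naming stranded mRNA libraries and another the depletion of ribosomal RNA.

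The sequences that the results turn on are those of the C/D snoRNAs with the highest values and those that differed between the control groups. They are shown 5′ to 3′ as GENCODE M21 transcripts on GRCm38, with the C box core TGATGA and the D box CTGA in capitals. Snord104 (chr11:106500993-106501062, plus strand), Snord96a (chr11:48802032-48802112, plus strand), Snord65 (chr11:62604515-62604586, plus strand) and Snord100 (chr10:23785750-23785823, minus strand) are followed by the sister pair Snord49a (chr11:62603450-62603521, plus strand) and Snord49b (chr11:62603079-62603150, plus strand), and by Snord47 (chr1:161038082-161038158, plus strand).
Snord104: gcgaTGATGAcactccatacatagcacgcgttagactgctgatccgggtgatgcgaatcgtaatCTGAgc
Snord96a: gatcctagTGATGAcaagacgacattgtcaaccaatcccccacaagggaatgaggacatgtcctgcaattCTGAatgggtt
Snord65: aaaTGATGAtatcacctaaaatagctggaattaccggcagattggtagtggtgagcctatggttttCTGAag
Snord100: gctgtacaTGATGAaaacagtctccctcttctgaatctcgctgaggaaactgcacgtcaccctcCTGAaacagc
Snord49a: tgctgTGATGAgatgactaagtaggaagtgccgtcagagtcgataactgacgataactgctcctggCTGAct
Snord49b: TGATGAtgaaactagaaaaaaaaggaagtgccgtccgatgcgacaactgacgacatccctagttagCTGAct
Snord47: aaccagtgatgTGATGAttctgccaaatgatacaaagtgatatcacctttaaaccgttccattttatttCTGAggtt

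For contrast, an H/ACA snoRNA of the same host as Snord100 is Snora33 (chr10:23785347-23785475, minus strand), with the ACA that lies 3 bases before the 3′ end in capitals.
Snora33: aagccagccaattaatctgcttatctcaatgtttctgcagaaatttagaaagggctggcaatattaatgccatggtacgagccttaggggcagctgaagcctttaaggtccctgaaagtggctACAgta

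The boxes of each class were counted in the sequences of its members. TGATGA followed by CTGA was found on the transcript strand in 16 of the 21 C/D snoRNAs (76.2%), against 3 of 476 other GENCODE transcripts of 64 to 110 bases on the same chromosomes (0.630%). With TGATGA starting in the first 20 bases and CTGA ending in the last 10 bases, the counts were 16 of 21 and 1 of 476 (0.210%). The 5 without the motif were Snord42a, Snord42b, Snord70, Snord91a and Snord98. An ACA 3 bases before the 3′ end was found in 6 of 6 H/ACA snoRNAs and in 0 of 23 other transcripts of 129 to 137 bases. Both searches were of exact letters, so a box with a changed letter was not counted. The other transcripts left out all those that GENCODE types as snoRNA or scaRNA. The counts therefore describe the classes and are no independent check of their labels.

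All 36 rows had a GENCODE transcript of the same symbol that overlapped them on the same strand. The table's row was shorter than the GENCODE transcript for 28 of them, equal for 5 and longer for 3. The shortest row was that of Snord98, 28 bases for a transcript of 65. By GENCODE, 26 members lie in an intron of every transcript of the gene around them. The 26 include Rnu1a1 and Rnu3b1 to Rnu3b4, within Tex14, and position alone does not show that a member is cut from that gene. Another 7 members are covered by an exon of some host transcripts, mostly ones with a retained intron. Those 7 are Snord96a, Snord95, Snord47, Snord100, Snora33, Snora5c and Snora75. Reads of a host transcript that keeps the intron and reads of the excised snoRNA cannot be told apart in these values. Snord104, Rnu3a and Rnu2-10 have no GENCODE host, although the row of the noncoding gene Gm36220 spans Snord104 in the table. Some members also overlap a gene on the other strand, such as Snord87 (Mcmdc2) and Snord91a (Srr), and whether the authors' counting used the strand is not stated.

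Between 25 and 32 of the 36 members had a TPM above 0 in a library. Their summed TPM was 182 to 238 in the exon 2-3 controls (206 ± 26.9, SD, n = 4), 210 to 266 in the exon 2-3 cKO (237 ± 23.9), 141 to 161 in the exon 2 controls (152 ± 8.52) and 135 to 176 in the exon 2 cKO (159 ± 17.1). Each of the 8 libraries of the exon 2-3 line thus lay above each of the 8 libraries of the exon 2 line. Without Snord96a and Snord104 the lines overlapped, with sums of 104 to 137, 124 to 156, 85.9 to 107 and 85.5 to 122 in the same order of groups. Over all rows held that are no longer than the longest member tested (128 bases, 319 rows besides the members), the sums were 676 to 777, 789 to 861, 776 to 817 and 782 to 844 in the same order of groups. In bulk tissue fewer cells of a type and less RNA per cell cannot be told apart. Mean TPM spanned from 47.5 for Snord96a to 0 for Snord91a, which was listed at 0 in all 16 libraries.

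The series as a whole set the following background. The rows held made up 15.2% to 17.1% of a library's TPM, and their read depth is unknown. The 6 cardiomyocyte marker genes held (Tnni1, Tnnt2, Pln, Myl7, Hand1 and Myl4) summed to 16997 to 18467 TPM in the exon 2-3 controls, 16492 to 17479 in their cKO, 12510 to 14606 in the exon 2 controls and 12886 to 13975 in their cKO. Pln and Hand1 did not follow that sum, with means of 624 and 62.7 TPM in the exon 2-3 controls and 656 and 67.6 TPM in the exon 2 controls. Hand1 was also at 36.3 to 45.1 TPM in the exon 2-3 cKO, against 55.6 to 71.5 TPM in its controls. Sums of 4 erythroid genes ran from 1512 to 11293 over the exon 2-3 cKO libraries and from 2018 to 4707 over the other groups. The 2 epicardial genes held (Tcf21 and Krt19) summed to 116 to 131 in the exon 2-3 controls and 168 to 191 in their cKO, and to 99.5 to 125 over the exon 2 line. The 4 myeloid genes summed to 60.3 to 89.5 and the 2 neuronal genes (Map2 and Syt1) to 0.295 to 2.11 over all libraries, none of these markers was at 0 throughout, and none of the 10 endothelial markers was among the rows held. The extraction text names cortical neurons, whereas the tissue label is ventricular heart. The part of these differences in cell markers in the results below was not tested.

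Rows with a mean of at least 1 TPM over the 16 libraries were tested, which kept 2620 rows and 23 of the 36 members: 17 C/D snoRNAs, 5 H/ACA snoRNAs and Scarna3a. Just inside that limit were Snora21 (1.18 TPM), Scarna3a (1.13) and Snord70 (1.02), and just outside it was Rnu1a1 (0.606). The 13 members outside were all 7 Rnu rows, Scarna6, Snora36b, Snord11, Snord82, Snord87 and Snord91a.

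The plot of levels by library shows the order of the tested members. Snord96a, in an intron of Rack1, which encodes a protein of the small ribosomal subunit, had the highest value of the members in each library, from 31.9 to 63.7 TPM with a median of 49.4. Snord104 followed with 11.3 to 47.1 TPM (median 22.2), and Snord47, in the noncoding host Gas5, had a median of 14.1 TPM. Snord100 (4.68 to 22.3), Snord49a (6.03 to 12.4) and Snord65 (4.57 to 13.9) came next, and their ranges overlap. The highest H/ACA snoRNAs were Snora33 (5.42 to 18.9 TPM) and Snora41 (2.83 to 13.2 TPM), the latter in the translation factor gene Eef1b2.

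**Figure D1:**
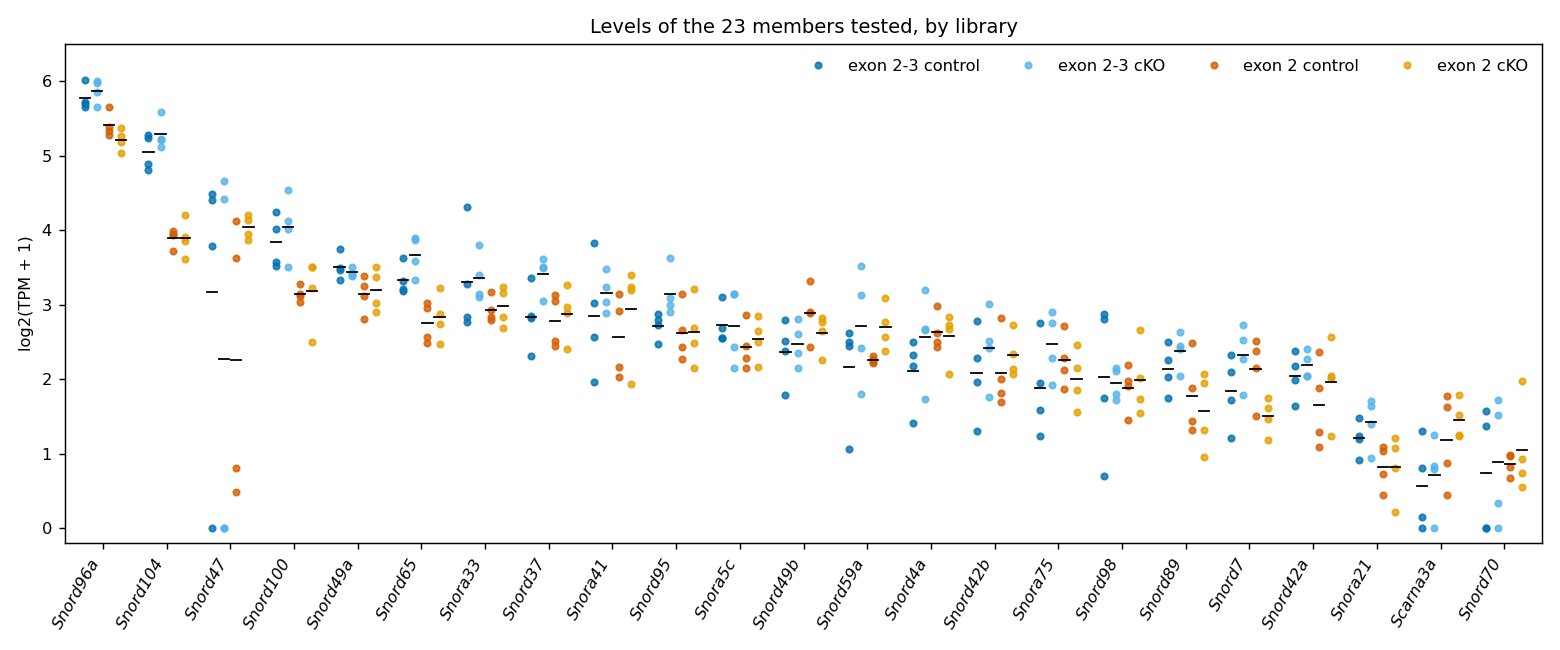
Levels of the 23 tested small RNA genes as log2(TPM + 1) on the y axis, ordered by mean TPM on the x axis; each point is 1 library, coloured by group, and each bar is the mean of 4 libraries. Snord104 separates the 2 lines, while Snord47 has libraries at 0 beside libraries above 10 TPM.

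A member's value was low beside that of its host, except where the host itself was low. Snord96a stood at 3.16% to 5.10% of the TPM of Rack1 in the same library, and Snord95, in another intron of Rack1, at 0.314% to 0.880%. Snord37 stood at 0.302% to 0.956% of Eef2, the elongation factor gene that holds it. Snord104, by contrast, was 298% to 653% of the TPM of Gm36220. The row of Gm36220 holds the whole of Snord104 and may share its reads, so this ratio may not compare separate RNAs. What part of the value of Gm36220 came from Snord104 was not tested. The 3 sisters in 2410006H16Rik had overlapping ranges: Snord49a was 7.33% to 12.6% of this host, Snord65 4.93% to 11.9% and Snord49b 2.06% to 12.0%.

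The members varied more between libraries of a group than most rows did. On the log2(TPM + 1) scale, the median residual SD of the 23 members was 0.40 in the exon 2-3 line and 0.36 in the exon 2 line, against 0.12 over the 2620 rows tested in each. Among 2022 other rows with a mean TPM inside the members' range it was 0.13 in both lines. Among 66 other tested rows of at most 128 bases it was 0.43 and 0.37. The members therefore spread like other short rows and more than rows of the same TPM, as a description without a test. Standard errors followed, with a median of 0.23 for members and 0.09 for all rows in the exon 2-3 comparison.

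The first comparison asked how the controls of the exon 2-3 line (batch 1) differed from those of the exon 2 line (batch 2). Snord104, Snord96a, Snord65, Snord100 and Snord49a were higher in the exon 2-3 controls, and no tested member was called lower in the fit over all libraries. All 5 are C/D snoRNAs. They were 5 of 23 tested members (21.7%) at an adjusted p under 0.05 by limma, a linear model with a moderated variance. Over all rows tested 52.6% were called in either direction, 14.4% higher and 38.1% lower. At an unadjusted p under 0.05 there were 6 members (26.1%), against 57.7% of all rows. These shares are given without a test, and with 5 calls the share called higher is not read as a trait of the members. The median SE in this comparison was 0.26 for members and 0.09 for all rows. Of the 66 other short rows tested, 16.7% were called in either direction. P-values here set the difference between groups against the spread of biological replicates within groups. With 1 batch for each line, they do not cover variation between batches.

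Snord104 had 28.6, 37.7, 27.0 and 36.6 TPM in the exon 2-3 controls and 14.4, 14.5, 14.9 and 12.3 TPM in the exon 2 controls. The groups did not overlap, and the lowest exon 2-3 control lay well above the highest exon 2 control. The means were 32.5 ± 5.43 and 14.0 ± 1.19 TPM (SD, n = 4 each), and limma gave a log2 fold change of 1.15 (SE 0.13, adjusted p 3.74e-06). The row of Gm36220 holds the whole of Snord104 and may share its reads, so the values of these rows are not independent. Gm36220 was at 7.29 ± 3.32 and 3.94 ± 0.539 TPM, with a log2 fold change of 0.68 (SE 0.23, limma adjusted p 0.0218). This host's call rests on single libraries: without exon 2-3 control replicate 4, at 12.3 TPM against 5.46 to 5.77 TPM in the others, or without exon 2 control replicate 4, it was lost, as it was with no limit on low values, at adjusted p values of up to 0.0773.

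Snord96a had 49.4, 51.0, 51.7 and 63.7 TPM in the exon 2-3 controls and 39.4, 49.3, 40.9 and 37.7 TPM in the exon 2 controls. The groups touched but did not overlap, with 49.4 TPM as the lowest value of one and 49.3 TPM as the highest of the other. The log2 fold change was 0.36 (SE 0.10, limma adjusted p 0.00765). Rack1, its host, was 1237 ± 27.2 and 1089 ± 104 TPM with overlap (log2 fold change 0.19, SE 0.067, adjusted p 0.0266 by limma). The call of Rack1 was lost under quantile normalisation, where its log2 fold change was 0.04, with no limit on low values, in a fit of the 8 control libraries alone, and in 5 of the 8 fits that left out 1 control library (exon 2-3 control replicate 1 or 2, exon 2 control replicate 2, 3 or 4). Snord95, the other snoRNA of Rack1, was at 5.63 ± 0.765 and 5.34 ± 1.77 TPM (log2 fold change 0.10, limma adjusted p 0.733).

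Snord65, Snord49a and Snord49b share 1 host, the noncoding gene 2410006H16Rik, and did not share 1 direction. Snord65 had 8.24, 11.4, 8.14 and 8.99 TPM in the exon 2-3 controls and 6.74, 4.63, 7.11 and 4.91 TPM in the exon 2 controls, with no overlap (log2 fold change 0.58, SE 0.17, limma adjusted p 0.00932). Snord49a had 12.4, 9.04, 10.2 and 10.03 TPM against 9.44, 8.54, 6.03 and 7.66 TPM, with overlap (0.36, SE 0.14, limma adjusted p 0.0349). Snord49b had 2.47, 4.72, 5.92 and 4.23 TPM against 9.02, 6.49, 4.41 and 6.43 TPM, with overlap (log2 fold change -0.52, SE 0.22, limma adjusted p 0.0539). The host itself was 119 ± 5.10 and 81.5 ± 8.61 TPM (0.55, SE 0.068, limma adjusted p 7.27e-06). Snord49a and Snord49b, printed above, were 69.2% identical over their aligned length. Snord49b was called lower without exon 2-3 control replicate 3 (log2 fold change -0.66, limma adjusted p 0.0248) or without exon 2 control replicate 3 (-0.67, limma adjusted p 0.0206). The difference in fold change between the sisters was not tested. The call of Snord49a was lost in 4 of the 8 fits with 1 control library fewer: without exon 2-3 control replicate 1 or 3, or without exon 2 control replicate 3 or 4, with adjusted p values of up to 0.132.

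Snord100 had 10.4, 18.0, 10.9 and 15.2 TPM in the exon 2-3 controls and 7.19, 7.70, 7.84 and 8.68 TPM in the exon 2 controls. The exon 2 controls were close together and all below the exon 2-3 controls. The log2 fold change was 0.69 (SE 0.23, limma adjusted p 0.0184), and without exon 2-3 control replicate 2 the adjusted p was 0.0649. Its host Rps12, a ribosomal protein gene, was 540 ± 15.3 and 508 ± 216 TPM (log2 fold change 0.17, SE 0.20, adjusted p 0.515 by limma). Among the exon 2 controls 1 library set the SD of Rps12: replicate 2 had 832 TPM and the other 3 had 396 to 403 TPM. Exon 2 cKO replicate 3, which also enters the spread of this fit, had 701 TPM, with 374 to 455 TPM in the rest of its group. Without exon 2 control replicate 2, Rps12 was also higher in the exon 2-3 controls (log2 fold change 0.43, limma adjusted p 0.0180). Snora33, the other snoRNA of Rps12 here, was 9.90 ± 6.16 and 6.68 ± 0.917 TPM (0.37, SE 0.26, limma adjusted p 0.260), with exon 2-3 control replicate 4 at 18.9 TPM and the other 3 at 5.82 to 8.72 TPM.

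The remaining tested members lay between -0.61 (Scarna3a, SE 0.33, limma adjusted p 0.134) and 0.91 (Snord47) in log2 fold change. Scarna3a was called lower without exon 2-3 control replicate 4 or without exon 2 control replicate 2 (-0.86 in both, limma adjusted p 0.0389 and 0.0402). The median of the 23 members was 0.28, against -0.14 over all rows tested, and 15 of 23 (65.2%) had a log2 fold change above 0, against 32.6% of all rows. The scaling moved both medians: with each library centred on its median they were 0.46 and 0.04, and after quantile normalisation 0.39 and -0.05. The same 5 members were called under both. The median of the 66 other short rows was -0.15, with 2 called higher and 9 lower. Non-overlap between the 2 control groups was seen for 4 of the 23 members (17.4%), all higher in the exon 2-3 controls, against 45.5% of all rows in either direction (12.9% higher and 32.6% lower).

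**Figure D2:**
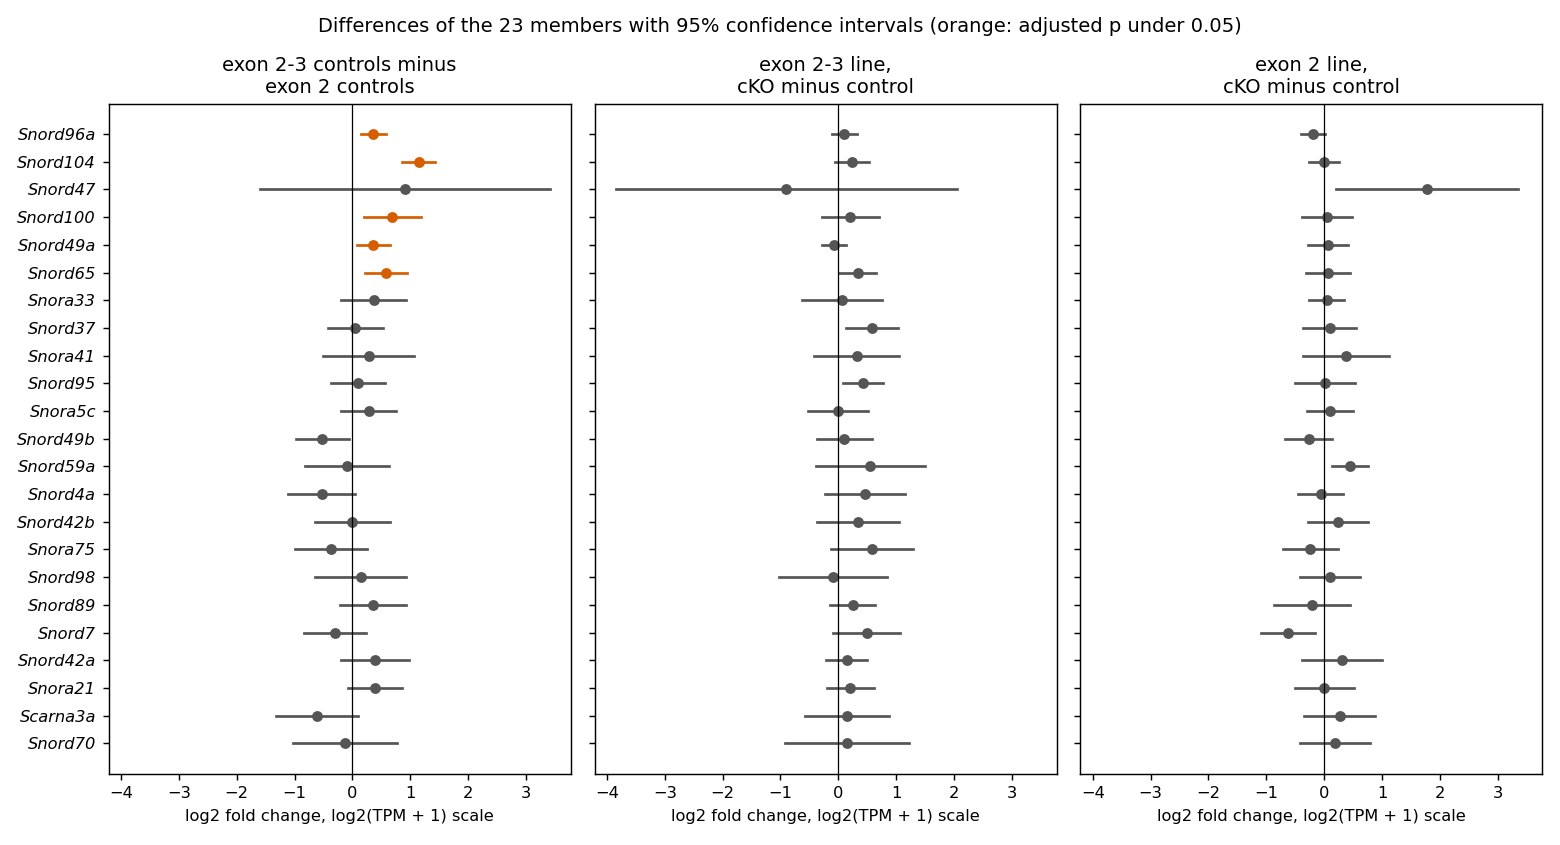
Log2 fold changes of the 23 tested small RNA genes on the log2(TPM + 1) scale (x axis), with 95% confidence intervals from limma, for the control comparison and for the cKO of each line (4 libraries a group). The 5 called members, in orange, are all in the control comparison, and Snord47 has the widest intervals.

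Hosts and their snoRNAs were set side by side in this comparison. Rpl23a, a ribosomal protein gene, was lower in the exon 2-3 controls, at 460 ± 14.0 against 1274 ± 99.5 TPM (log2 fold change -1.47, limma adjusted p 4.04e-08). Its 3 snoRNAs had log2 fold changes of -0.53 (Snord4a, limma adjusted p 0.119), 0.39 (Snord42a, adjusted p 0.256) and -0.0015 (Snord42b, adjusted p 0.997), none of them called. Ribosomal protein genes such as Rpl23a and Rps12 have near-identical processed copies in the genome, so their own values are uncertain. Of the other hosts, Nop58, which encodes a core protein of C/D snoRNA particles, was higher (0.38, limma adjusted p 6.31e-05), and Snord70 in its intron had -0.13 (SE 0.43, adjusted p 0.822). Eef1b2 was higher (0.51, limma adjusted p 3.89e-06), and Snora41 in its intron had 0.28 (SE 0.37, adjusted p 0.549). Hosts were also called in the other direction. Eef2 was lower (-0.25, limma adjusted p 0.0026), and Snord37 had 0.05 (SE 0.22, adjusted p 0.868). Tbrg4 was lower (-0.30, limma adjusted p 0.0020), and its Snora5c had 0.29 (SE 0.22, adjusted p 0.302). Whether a snoRNA differed from its host was not tested.

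**Figure D3:**
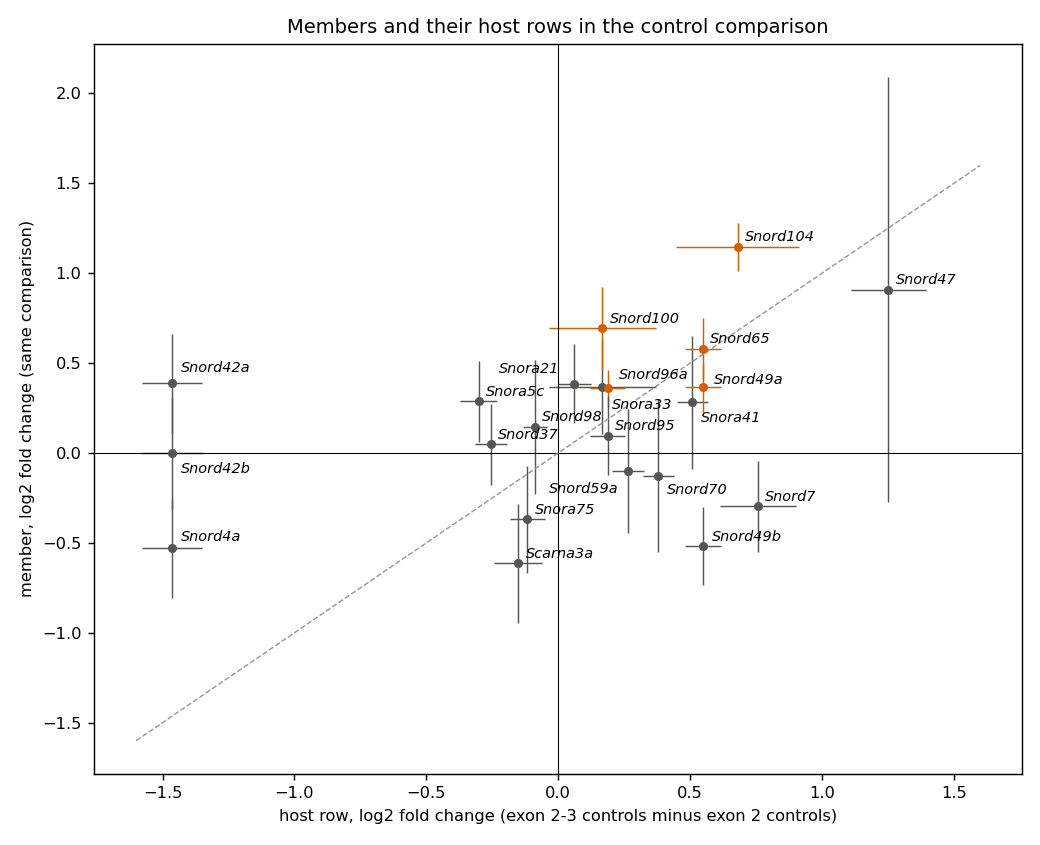
Log2 fold change of each tested small RNA gene with a host row (y axis) against that of the host (x axis; AA465934 for Snord7) in exon 2-3 controls minus exon 2 controls, both on the log2(TPM + 1) scale, with standard errors; the dashed line marks equal values, and orange marks called members. The 3 snoRNAs of Rpl23a lie above the line, with the host at -1.47, and Snord49a, Snord65 and Snord49b share 1 host value at 0.55. Gm36220, the host row of Snord104, holds the whole of Snord104 and may share its reads.

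Snord47 was either near 0 or above 10 TPM. It had 0, 21.4, 12.9 and 20.2 TPM in the exon 2-3 controls and 20.4, 0, 0 and 24.3 TPM in the exon 2-3 cKO. In the exon 2 line it had 11.3, 0.762, 16.4 and 0.40 TPM in the controls and 13.7, 16.6, 14.4 and 17.5 TPM in the cKO. It was therefore listed at 0 in 3 libraries and under 1 TPM in 5, and at 11.3 TPM or more in the other 11, with no value between. Low libraries occurred in 3 of the 4 groups and not in the exon 2 cKO. Its host Gas5, a noncoding RNA known for carrying several C/D snoRNAs, had 322 to 425 TPM over the exon 2-3 line and 117 to 206 TPM over the exon 2 line, and did not drop to near 0 in any library. Gas5 was higher in the exon 2-3 controls than in the exon 2 controls (360 ± 25.8 against 153 ± 29.6 TPM, log2 fold change 1.25, SE 0.14, adjusted p 3.25e-06 by limma). The log2 fold change of Snord47 in that comparison was 0.91 (SE 1.18, limma adjusted p 0.544).

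**Figure D4:**
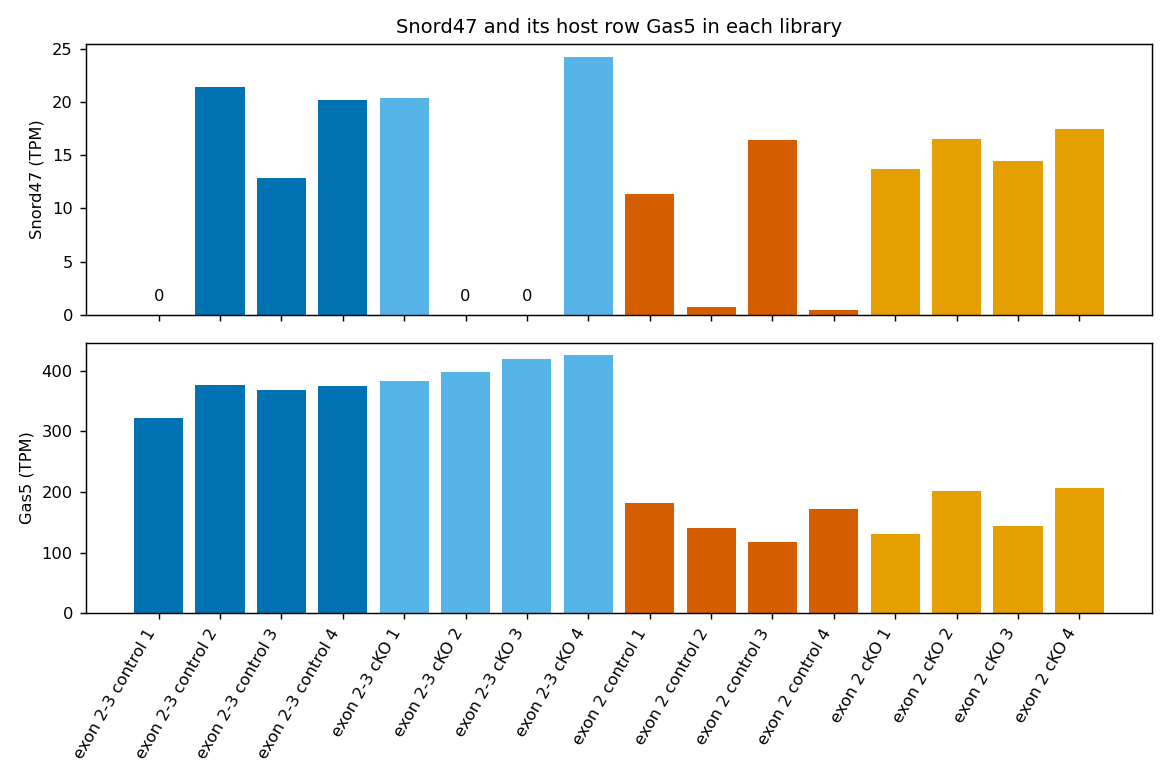
TPM of Snord47 (upper panel) and of its host Gas5 (lower panel) in each of the 16 libraries, coloured by group, with libraries listed at 0 marked 0. Snord47 is at 0 or under 1 TPM in 5 libraries while Gas5 is at 117 TPM or more in every one.

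The second comparison asked what the deletion of exons 2 to 3 in cardiomyocytes did to these RNAs. By limma 0 of 23 members (0%) were called, against 6.72% of all rows tested. At an unadjusted p under 0.05 there were 3 members (13.0%), Snord37, Snord95 and Snord65, against 21.1% of all rows. Of the 23, 19 (82.6%) had a log2 fold change above 0, against 58.5% of all rows. The median was 0.21, against 0.03 over all rows and 0.16 over the 66 other short rows. With each library centred on its median, the medians of the members and of all rows were 0.16 and -0.02.

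Snord37, in an intron of Eef2, had 6.06, 6.23, 3.97 and 9.29 TPM in controls and 11.3, 7.33, 10.4 and 10.2 TPM in the cKO. One cKO library lay below the highest control (log2 fold change 0.58, SE 0.20, limma adjusted p 0.130). Without control replicate 4, its highest control, the log2 fold change was 0.76 and the adjusted p 0.0353, so whether it was called turned on that library. Eef2 itself was at 1249 ± 104 and 1204 ± 40.8 TPM (-0.05, limma adjusted p 0.715). Snord95 had 6.34, 4.57, 5.98 and 5.64 TPM in controls and 6.47, 6.96, 11.3 and 7.498 TPM in the cKO, and was the 1 member of 23 without overlap (4.35%), against 14.5% of all rows in either direction and 9.24% higher. Its log2 fold change was 0.43 (SE 0.16, limma adjusted p 0.147).

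Snord65 was at 9.19 ± 1.51 TPM in controls and 11.9 ± 2.28 TPM in the cKO (log2 fold change 0.33, SE 0.14, limma adjusted p 0.217). The H/ACA snoRNA Snora75, in an intron of the nucleolin gene Ncl, had 5.78, 1.37, 2.86 and 2.01 TPM in controls and 3.90, 2.78, 5.75 and 6.52 TPM in the cKO, and the groups overlapped (0.58, SE 0.32, limma adjusted p 0.335). For the most abundant members the intervals were narrower. The 95% interval of the log2 fold change ran from -0.12 to 0.32 for Snord96a and from -0.05 to 0.53 for Snord104. For Snord47 it ran from -3.85 to 2.05 around -0.90 (limma adjusted p 0.746), and a difference of that size was not detectable at this spread.

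In the exon 2 line, 0 of 23 members (0%) were called by limma when cKO and control were compared, against 0.0763% of all rows. At an unadjusted p under 0.05 there were again 3 members (13.0%), against 3.21% of all rows: Snord59a, Snord7 and Snord47. Snord59a, in an intron of the ATP synthase gene Atp5b, had 3.69, 3.86, 3.66 and 4.00 TPM in controls and 5.83, 4.93, 7.55 and 4.23 TPM in the cKO, without overlap (log2 fold change 0.44, SE 0.14, limma adjusted p 0.999). It was the 1 member of 23 without overlap (4.35%), against 1.83% of all rows in either direction and 0.687% higher. In the exon 2-3 line Snord59a had 5.18, 4.47, 1.09 and 4.67 TPM in controls and 7.74, 10.5, 2.48 and 4.34 TPM in the cKO, a far wider spread (log2 fold change 0.56, SE 0.42, limma adjusted p 0.492).

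Snord7 had 4.70, 3.44, 4.19 and 1.85 TPM in the exon 2 controls and 1.29, 2.08, 1.78 and 2.36 TPM in their cKO, where 3 of 4 controls lay above every cKO library (log2 fold change -0.63, SE 0.21, limma adjusted p 0.999). In the exon 2-3 line its sign was the opposite, with 3.27, 2.30, 1.33 and 4.00 TPM in controls and 5.64, 3.83, 4.79 and 2.46 TPM in the cKO (0.49, SE 0.26, limma adjusted p 0.317). Snord47 had the largest log2 fold change of the members, 1.78 (SE 0.71, limma adjusted p 0.999), with 2 of its 4 control libraries under 1 TPM. The intervals of the leading members spanned 0 here too, from -0.41 to 0.01 for Snord96a and from -0.27 to 0.26 for Snord104. The members' median was 0.06, against -0.01 over all rows and 0.05 over the 66 other short rows, and 16 of 23 (69.6%) had a log2 fold change above 0, against 43.2%.

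The difference between the effects of the 2 cKO alleles was tested as an interaction. By limma 0 of 23 members (0%) were called, against 2.37% of all rows, and 1 member (4.35%) had an unadjusted p under 0.05, against 15% of all rows. That member was Snord7, with a difference of 1.12 in log2 fold change, exon 2-3 line minus exon 2 line (SE 0.36, limma adjusted p 0.123). Snora75 had 0.83 (SE 0.42, limma adjusted p 0.385) and Snord47 had -2.68 (SE 1.67, limma adjusted p 0.508). The median SE of this difference was 0.37 for members and 0.13 over all rows.

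Scarna3a was the only scaRNA tested. It lies in an intron of Cop1, a ubiquitin ligase gene, and had 0, 0.758, 0.115 and 1.48 TPM in the exon 2-3 controls and 0, 0.735, 0.786 and 1.39 TPM in their cKO. In the exon 2 line it had 2.44, 0.359, 2.10 and 0.834 TPM in controls and 1.36, 1.39, 1.87 and 2.46 TPM in the cKO. All groups of it overlapped, and its log2 fold changes were 0.15 (SE 0.33, limma adjusted p 0.842) and 0.27 (SE 0.28, limma adjusted p 0.999) in the exon 2-3 and exon 2 cKO. Scarna6 stayed under 1 TPM in all 16 libraries, with a highest value of 0.753.

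U1, U2 and U3 are among the most abundant small RNAs of mammalian cells, yet their rows held low values and none was tested. Rnu1a1 and Rnu3b1 to Rnu3b4 lie within the testis-expressed gene Tex14 on chromosome 11. Rnu3b1, Rnu3b2 and Rnu3b3 have 100% identical transcripts of 215 bases, and Rnu3b4 is 99.5% identical to them. Reads of these copies therefore cannot be assigned to 1 of them, and their single values are uncertain. Rnu3a is 85.8% identical to Rnu3b1, Rnu3b2 and Rnu3b3, and how far reads were told apart from theirs was not tested. The summed TPM of the 7 rows was 0.749 to 6.73 in the exon 2-3 controls, 2.06 to 6.60 in their cKO, 0.451 to 1.02 in the exon 2 controls and 0.0737 to 1.07 in their cKO. These rows are described here after their values had been seen.

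Rnu1a1 had 0.527, 0.534, 2.87 and 0.437 TPM in the exon 2-3 controls and 0.119, 0.307, 0.154 and 0.285 TPM in the exon 2 controls. Each exon 2-3 control was above each exon 2 control, also without exon 2-3 control replicate 3, the highest library. In a fit without the limit on low values (5564 rows) its log2 fold change was 0.65 (SE 0.27, limma adjusted p 0.102). Rnu2-10 behaved alike, with 0.653, 0.282, 1.76 and 0.312 TPM against 0.101, 0.000597, 0.0792 and 0 TPM (0.67, SE 0.25, limma adjusted p 0.0627 in that fit). Of the untested members Snora36b also did not overlap between the control groups, in the other direction: it was listed at 0 in all 4 exon 2-3 controls and had 0.0877, 0.284, 0.628 and 0.236 TPM in the exon 2 controls (limma adjusted p 0.102 in that fit). Snora36b was also at 0 in all 4 exon 2 cKO libraries, so it did not overlap with their controls either, and it was not called there in that fit. Among the rows tested, 45.5% did not overlap between the control groups and 1.83% between the exon 2 cKO and its controls. These shares were not computed over the 5564 rows, so these separations near 0 are only described. Replicate 3 was the highest exon 2-3 control for Rnu1a1, Rnu2-10 and Rnu3a (1.23 TPM, with 0, 0.155 and 0 TPM in the other 3). For Rnu3b1 to Rnu3b4 the 4 exon 2-3 cKO libraries all had values above 0, from 0.306 to 1.23 TPM, while control replicates 1 and 4 were listed at 0 for each of them. The log2 fold changes of these 4 copies were 0.38 to 0.55 without the limit on low values (limma adjusted p 0.255 to 0.373).

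**Figure D5:**
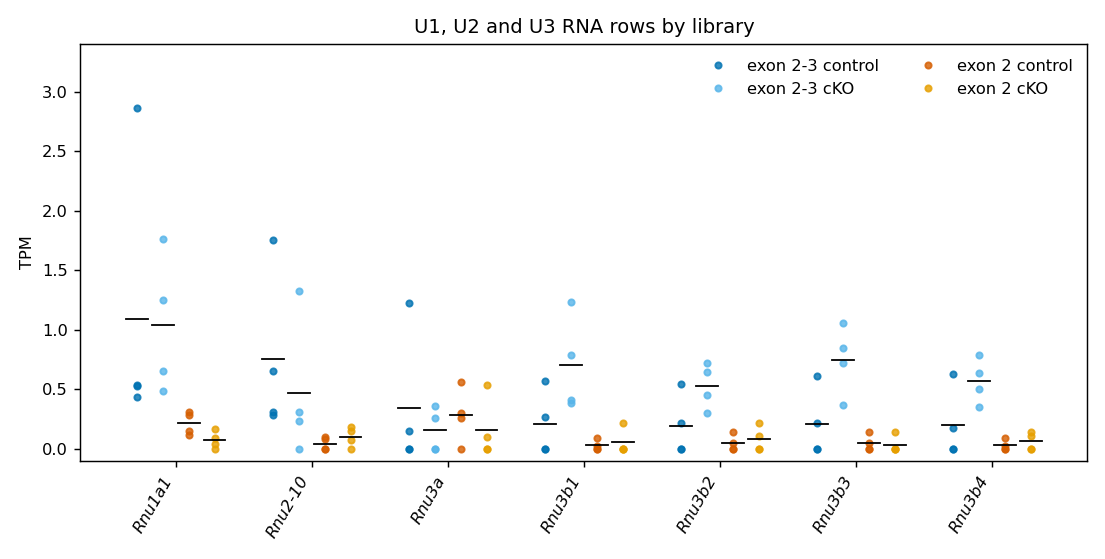
TPM of the 7 Rnu rows (U1, U2 and U3 RNA) on the y axis; each point is 1 library, coloured by group, and each bar is the mean of 4 libraries. Rnu1a1 reaches 2.87 TPM in 1 exon 2-3 control, and the exon 2 line stays at 0.562 TPM or below in every row.

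The proteins that assemble with these RNAs were read from lists. Of 53 proteins of snoRNA particles and of the processome that matures the small subunit's RNA, 13 were among the rows held and all 13 were tested. In the exon 2-3 cKO 1 rose and 0 fell, where 4.16% of all rows rose and 2.56% fell. It was Utp20, a processome protein, at 12.2 ± 0.805 TPM in controls and 15.7 ± 0.466 TPM in the cKO (log2 fold change 0.34, SE 0.068, adjusted p 0.0181 by limma), and its call was lost without cKO replicate 1 or cKO replicate 3 (adjusted p up to 0.0613). Of 59 proteins of spliceosomal particles 15 were held and tested, of which 0 rose and 2 fell. These were Snrpf, at 157 ± 10.4 and 133 ± 2.57 TPM (-0.23, SE 0.054, limma adjusted p 0.0351), and Snrpe, at 311 ± 16.1 and 264 ± 14.3 TPM (-0.24, SE 0.056, limma adjusted p 0.0361). Both encode Sm proteins, which form a ring on spliceosomal RNAs. Both calls were lost with no limit on low values, with no intensity trend, with the replicate block and in 1 fit over all 16 libraries (adjusted p up to 0.122 for Snrpf and 0.104 for Snrpe), and that of Snrpe also under quantile normalisation. Each call was lost in 6 of 8 fits with 1 library fewer, with adjusted p values of up to 0.103 for Snrpf (kept only without control replicate 2 or 3) and 0.111 for Snrpe (kept only without control replicate 4 or cKO replicate 1). Of 61 genes for the synthesis and processing of small RNAs, 4 were held and 0 called, with 0 at an unadjusted p under 0.05.

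In the exon 2 cKO none of the genes tested from these 3 lists was called by limma and 0 had an unadjusted p under 0.05, against 0.0763% and 3.21% of all rows. The smallest p of each list belonged to Znhit3 (log2 fold change 0.10, SE 0.086), Sf3a2 (-0.11, SE 0.059) and Gemin5 (0.05, SE 0.084), each with an adjusted p of 0.999. In the interaction 0 of these genes were called by limma and 3 had an unadjusted p under 0.05, against 2.37% and 15% of all rows. Utp20 was among the 3 (difference of 0.30, SE 0.10, limma adjusted p 0.140). In the control comparison 4 of 13 snoRNA particle genes were higher in the exon 2-3 controls (Nop58, Nhp2, Wrap53 and Znhit3) and 1 was lower (Utp20). Of the spliceosomal particle genes 7 were higher and 6 lower, and of the small RNA processing genes 0 were higher and 3 lower. These counts stand beside 14.4% of all rows called higher and 38.1% called lower.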

How the data were processed

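The 36 genes and the lists of proteins and markers were chosen with earlier results of these data known. The authors deposited 1 table of TPM values. FastQC, Trim Galore 0.6.7, HISAT2 2.2.1, StringTie 2.2.1, featureCounts, DESeq2 and GRCm38 are named, per the submitters' processing notes, and which of them made the TPM values is not stated. The table was held in part: 2219, 1695 and 2007 rows of chromosomes 1, 10 and 11, with 1 last line cut short and left out.

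Row names gave symbol and coordinates, and GENCODE M21 (GRCm38) gave sequences and introns. Groups came from the sample titles. Values were analysed as log2(TPM + 1), so the fold changes of low genes are understated. Rows with a mean of at least 1 TPM were fitted with limma 3.58.1 (intensity trend) in R 4.3.3, each line on its own 8 libraries, and the controls and the interaction on all 16. Tests were two-sided with Benjamini-Hochberg adjustment over all 2620 rows and a threshold of 0.05, and the procedure was tested on simulated data. TPM keeps no depth, so no counting interval is given.

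Members named are the 12 with the highest mean, those called, the 3 with the largest log2 fold change in each comparison, tested scaRNAs, and their hosts; list genes are named where called in a cKO, or by the smallest p. Others were chosen after their values were seen. The alternatives were a pseudocount of 0.1, other limits on low values (none, 5 TPM, or above 0 in 12 libraries), 2 scalings, no trend, a replicate block, other sets of libraries, array weights and leaving out each library. Sequences were aligned with Biopython 1.88, and figures made with matplotlib 3.10.9.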

Additional observations from a re-analysis of the deposited data

Results flagged for a closer look

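Snord96a stood apart in 1 library. Exon 2-3 control replicate 4 had 63.65 TPM and the other 3 controls of that line 49.4 to 51.7 TPM, a gap larger than the 95% critical value of Dixon's test allows for 4 samples. This was 1 of 64 checks (16 named members in 4 groups), and chance alone gives about 1 in 20. Without that library Snord96a was still called in the control comparison.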

How the results depend on the processing

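The number of members called by limma was 0 in each cKO comparison and in the interaction under the other pseudocount, limits on low values, scalings, fits without a trend and sets of libraries. Leaving out 1 library gave 0 to 1 in the exon 2-3 cKO (Snord37 without control replicate 4), 0 in the exon 2 cKO and in the interaction, and 4 to 6 in the control comparison. With no limit on low values 3 members were called in the control comparison (Snord104, Snord65 and Snord96a) in place of 5; that fit adjusted over 5564 rows. Of 17 alternatives there, Snord104, Snord96a and Snord65 were called in 17, Snord100 in 15 and Snord49a in 12, while Snord49b and Scarna3a were called lower in 2 each. In the 15 pairs of a member and a comparison recomputed under these alternatives, no log2 fold change reversed. With the replicate number as a block 0, 0, 5 and 0 members were called in the exon 2-3 cKO, the exon 2 cKO, the controls and the interaction, over 149, 2, 1305 and 36 rows in all. Pairing by replicate number was checked on the deviations of each row from its group mean, not on the levels themselves. These deviations correlated between same-numbered libraries with r from -0.029 to 0.21 in the exon 2-3 line. The range was 0.064 to 0.20 in the exon 2 line and -0.22 to -0.025 between the controls. In the same order, 1, 3 and 0 of 4 correlated best with their own number, so the numbers were not taken to pair the libraries. With a limit of 5 TPM, Snora75, Snord7 and Snord59a were not tested. The unknown depth limits what can be said of values near 0.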
